A study of Mus musculus with 14 samples.

Results

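Imprinted genes whose mark of DNA methylation is laid on the maternal allele were followed in sorted mouse male germ cells that lack the methyltransferase DNMT3C. The group held 10 genes chosen by name, Peg3, Mest, Snrpn, Peg10, Plagl1, Kcnq1ot1, Igf2r, Cdkn1c, Impact and Nnat, and each had a single row in the count table of spermatogonia (10 of 32667 genes) and in that of spermatocytes (10 of 36888 genes). Polyadenylated RNA of 14 libraries had been sequenced, from spermatogonia (Spg) of 3 Dnmt3CKO/KO (KO) and 3 wild type (WT) samples and from spermatocytes (Spc) of 4 KO and 4 WT samples, with littermates collected for each genotype. The KO allele is constitutive and present in every cell of the animal, and the mice were kept on a C57Bl6/J background. Spermatogonia were sorted from testes at postnatal day 14 as cells with the surface marker EpCAM and without β2-microglobulin, and spermatocytes from mice older than 20 days by their DNA content in Hoechst stain after propidium iodide had been used to leave out dead cells, so that cell stage, age and sorting scheme cannot be told apart. No methylation was measured in these libraries, and the group is defined by what is known of these loci.

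At an imprinted locus the alleles from mother and father carry different DNA methylation, set in the germ line of the parent and kept in the body cells of the offspring. At most imprinted loci the primary mark is laid in the growing oocyte, on CpG-rich promoters that are transcribed through at that time. These regions are erased in primordial germ cells of both sexes and are then left unmethylated in the male germ line, which sets its methylation before birth. DNMT3C is a rodent-specific enzyme of that prenatal phase and acts on promoters of young transposable elements (TEs). In body cells Peg3, Mest, Snrpn, Peg10, Plagl1, Kcnq1ot1, Impact and Nnat are expressed from the unmethylated paternal allele. Igf2r and Cdkn1c are expressed from the maternal allele, each beside a long RNA made from the paternal allele that starts in the methylated region (Airn within Igf2r, Kcnq1ot1 near Cdkn1c).

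Stretches upstream of 5 start sites that lie in maternally methylated regions are shown with every CpG dinucleotide, the substrate of the methyltransferases, in capitals. They are the 250 bases before the start in RefSeq on GRCm38.p6, written 5′ to 3′ along the gene. They lie at chr7:6730420-6730669 on the minus strand for Peg3, chr6:30737800-30738049 on the plus strand for Mest, chr10:13090582-13090831 on the plus strand for Plagl1, chr7:143296548-143296797 on the minus strand for Kcnq1ot1 and chr2:157559828-157560077 on the plus strand for Nnat.
Peg3: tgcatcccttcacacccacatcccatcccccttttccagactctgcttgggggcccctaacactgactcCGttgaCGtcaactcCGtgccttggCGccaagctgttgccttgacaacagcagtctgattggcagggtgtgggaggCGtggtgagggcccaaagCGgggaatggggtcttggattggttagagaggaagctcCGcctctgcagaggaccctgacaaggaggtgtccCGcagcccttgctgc
Mest: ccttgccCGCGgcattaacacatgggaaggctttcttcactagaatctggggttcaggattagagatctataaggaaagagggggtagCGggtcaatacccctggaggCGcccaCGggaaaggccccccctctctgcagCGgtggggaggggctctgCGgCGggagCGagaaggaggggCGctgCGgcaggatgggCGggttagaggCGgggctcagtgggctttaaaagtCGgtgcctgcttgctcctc
Plagl1: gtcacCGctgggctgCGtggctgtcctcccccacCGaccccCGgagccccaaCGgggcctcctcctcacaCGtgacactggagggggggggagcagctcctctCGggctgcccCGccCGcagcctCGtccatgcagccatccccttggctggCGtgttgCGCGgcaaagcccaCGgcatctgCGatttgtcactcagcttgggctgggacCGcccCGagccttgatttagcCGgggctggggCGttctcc
Kcnq1ot1: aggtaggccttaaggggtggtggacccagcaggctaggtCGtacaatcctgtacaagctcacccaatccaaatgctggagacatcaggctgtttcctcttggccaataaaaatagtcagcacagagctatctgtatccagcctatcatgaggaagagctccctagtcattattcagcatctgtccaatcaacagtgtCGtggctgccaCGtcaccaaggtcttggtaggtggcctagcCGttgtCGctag
Nnat: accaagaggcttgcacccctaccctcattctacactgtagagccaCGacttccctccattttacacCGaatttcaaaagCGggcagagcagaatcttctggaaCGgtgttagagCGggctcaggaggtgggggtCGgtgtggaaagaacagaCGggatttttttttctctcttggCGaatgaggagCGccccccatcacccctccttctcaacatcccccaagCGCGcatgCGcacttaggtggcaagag
Plagl1 held 19 CpG in this window, Mest 14, Nnat 12, Peg3 8 and Kcnq1ot1 5, against a median of 6 over all 32851 windows of that length. The stretches thus ran from CpG-rich to no richer than a usual start.

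Such windows are reported for 7 of the 10 genes, 12 in all, because Mest had 3 and Snrpn 4 alternative starts. Peg10 and Cdkn1c had none, and windows on chromosome 18, where Impact lies, were left out of these counts. Igf2r, whose own promoter is not the maternally methylated region of its locus, held 27 CpG, and the 4 Snrpn windows held 2 to 4. The hexamer TGCCGC, the motif that the imprint-keeping zinc finger protein ZFP57 reads when it is methylated, was found on either strand in 3 of the 12 windows, which were the pair of overlapping Mest windows and that of Plagl1, and in 8.68% of all windows. The octamer GCGCATGC, the core of the site of the methylation-sensitive activator NRF1, was found in the Nnat window, there as 2 overlapping matches on opposite strands, and in 2.26% of all windows. These matches describe letters only.

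The 10 genes lie on 6 chromosomes in the GENCODE M21 annotation of GRCm38, and several share their locus with another transcript. Peg3 (ENSMUSG00000002265.17) spans bases 6703892 to 6730431 of chromosome 7, Mest (ENSMUSG00000051855.15) 30723547 to 30748465 of chromosome 6, Plagl1 (ENSMUSG00000019817.18) 13060504 to 13131694 of chromosome 10 and Igf2r (ENSMUSG00000023830.14) 12682406 to 12769664 of chromosome 17. Kcnq1ot1 lies wholly within Kcnq1 on the opposite strand, over 93092 bases. Nnat lies within an intron of Blcap on the opposite strand, and Airn overlaps 28354 bases of Igf2r on the opposite strand. Reads had been counted by strand, which keeps these pairs apart. Snrpn shares exons on its own strand with Snurf, so how the reads of that locus were split between the pair is uncertain.

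The libraries held 40555726 to 53323651 counts over genes and TE subfamilies. Dnmt3c itself had 53 to 116 counts in spermatogonia and 11 to 57 in spermatocytes and was not lower in the KO libraries, so its own counts do not check the labels. Levels are given as CPM, the counts of a gene per 1000000 counts of a library, after edgeR's TMM scaling of all 14 libraries together. In each genotype, spermatocyte replicates 1 and 4 resembled each other closely, with a chi-square per degree of freedom of 11.6 for KO and 14.9 for WT against 129 to 286 for the other pairs of spermatocyte libraries. These values exceed counting noise, which repeat preparations of the same cells would do too. The study calls its replicates biological, but for spermatocytes it states fewer per genotype than the 4 libraries labelled here. The libraries were kept as separate samples as labelled, with the count of calls also given for the pair summed. No label names the animal behind a library, and p-values measure the spread between these samples.

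Marker levels of several cell types set the KO spermatocyte libraries apart from the WT ones. Germ cell markers (5 genes) summed to 2000 to 2927 CPM in KO and 4506 to 4877 CPM in WT spermatocytes, with Mael, Ddx4 and Tex101 called lower in KO, Dazl called higher (log2 2.17, adjusted p = 0.00266, edgeR) and Sycp3 not called (log2 -0.01). The summed level of 7 pachytene markers was 8375 to 15098 CPM in WT spermatocytes, with WT replicate 3 lowest, and 247 to 509 CPM in KO spermatocytes. The summed level of 8 peritubular and stromal markers was 6232, 4028, 544 and 5367 CPM in KO spermatocyte replicates 1 to 4 and 52.1 to 67.9 CPM in WT spermatocytes, and none of the 8 was at 0 in any of them. Summed Leydig (6 genes), macrophage (6 genes) and endothelial (4 genes) markers were also higher in every KO than in every WT spermatocyte library. The endothelial sum was mostly Cdh5 (mean 77.0 CPM in KO spermatocytes). Cdh5 and Tek were called higher in KO, while Pecam1 and Kdr overlapped between the genotypes and were not called. Sertoli markers (10 genes) summed to 1144, 432, 317 and 1064 CPM in KO and 171, 190, 537 and 141 CPM in WT spermatocytes, so that WT replicate 3 was above KO replicates 2 and 3. Spermatogonial markers (10 genes) summed to 456 to 1161 CPM in KO and 168 to 440 CPM in WT spermatocytes, with 7 called higher in KO and Id4 lower (131 to 228 CPM in WT and 4.16 to 7.12 CPM in KO). In spermatogonia the stromal list summed to only 33.7 to 49.9 CPM and Sertoli markers to 325 to 1500 CPM in both genotypes. Pachytene markers summed to 266 to 1512 CPM in WT and 164 to 194 CPM in KO spermatogonia, and germ cell markers to 2309 to 2534 CPM in WT and 1988 to 2125 CPM in KO, so that neither list overlapped between the genotypes. The part that these cells have in the levels of the imprinted genes was not tested, and in bulk libraries fewer cells of a type and less RNA per cell cannot be told apart.

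**Figure D1:**
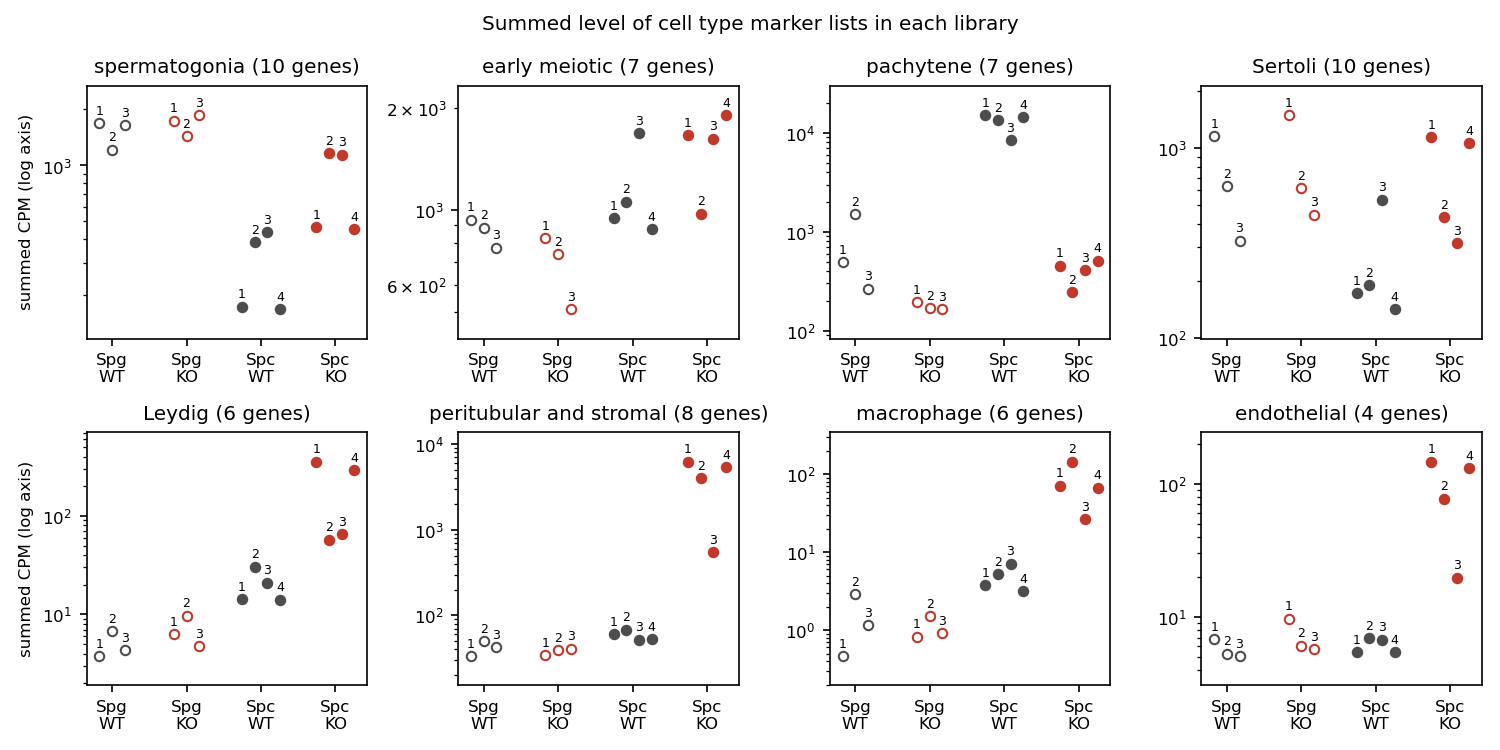
Summed CPM (log axis) of marker genes of 8 cell types in each library, with spermatogonia (Spg, open) and spermatocytes (Spc, filled) of WT (grey) and KO (red) mice. Numbers are replicates. KO spermatocytes reached 6232 CPM of peritubular and stromal markers, and at most 509 CPM of pachytene markers.

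In spermatogonia none of the 10 genes was called different between KO and WT. All had log2 fold changes between -0.37 (Kcnq1ot1) and 0.42 (Mest), and the genotypes overlapped for each, while 12.1% of all genes tested had no overlap. Calls were made at an adjusted p under 0.01 in edgeR's quasi-likelihood test with Benjamini-Hochberg adjustment over all genes and TE subfamilies, and fold changes come from each stage's own scaling. Of all 20659 genes tested, 9 (0.0436%) were called, so a count of 0 among 10 members is what the background gives. No member had an unadjusted p under 0.05 (the lowest was 0.178, for Mest), against 1509 genes (7.3%) in all, and DESeq2 called none of the 10 as well. The median of the members was -0.02 and that of all genes 0.02 on the log2 scale.

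Igf2r, the receptor that carries IGF2 and mannose 6-phosphate-tagged enzymes to lysosomes, had the highest level per kilobase of exon of the 10 and the smallest error of the difference (SE 0.12). It stood at 139, 114 and 150 CPM in WT and 123, 133 and 127 CPM in KO spermatogonia. Its difference was -0.10 on the log2 scale, with a 95% interval, from the t distribution at the degrees of freedom of the test, of -0.39 to 0.18. It had at least 5731 counts in each spermatogonia library.

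Peg3, a large zinc finger protein that acts as a repressor, had 52.4, 48.3 and 63.1 CPM in WT and 47.3, 59.2 and 39.5 CPM in KO spermatogonia. Peg10, which derives from a Ty3/gypsy-like retrotransposon and still shifts frame to make its long protein, had 84.2, 50.4 and 34.4 CPM in WT and 80.9, 51.1 and 40.8 CPM in KO. In both genotypes replicate 1 was thus highest and replicate 3 lowest for Peg10. The log2 difference of Peg10 was -0.01 and its interval ran from -0.84 to 0.82, wider than that of Peg3 (-0.61 to 0.21).

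Cdkn1c, an inhibitor of cyclin-dependent kinases that holds cells out of cycle, had 13.2, 11 and 11.2 CPM in WT and 12.9, 5.95 and 16.5 CPM in KO spermatogonia. Kcnq1ot1, the long non-coding RNA that silences Cdkn1c in cis on the paternal allele, had 10.1, 26.6 and 27.8 CPM in WT and 11.2, 27.8 and 12.1 CPM in KO. The KO libraries lay on both sides of the WT levels for Cdkn1c. Kcnq1ot1 had the largest error of the difference among the 10 (log2 -0.37, SE 0.46), and its interval reached 0.71 upward.

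The other members had between 3.13 and 13.2 CPM in any spermatogonia library. Mest, a membrane protein related to hydrolases, had 8.16, 5.93 and 9.38 CPM in WT and 10.8, 7.89 and 13.2 CPM in KO, with an interval of -0.23 to 1.06. Plagl1, a zinc finger transcription factor that slows growth, had 7.95, 3.48 and 6.03 CPM in WT and 6.90, 5.23 and 5.76 CPM in KO. Impact, which restrains the amino acid sensor kinase GCN2, had 7.43, 6.73 and 6.39 CPM in WT and 8.68, 5.93 and 5.39 CPM in KO. For each of the 3 the KO libraries fell among the WT libraries or overlapped them. Nnat, a small membrane proteolipid, had 3.54, 3.88 and 4.93 CPM in WT and 4.38, 4.26 and 6.01 CPM in KO. Snrpn, which encodes the spliceosomal protein SmN, had 3.80, 3.28 and 3.13 CPM in WT and 4.81, 3.42 and 4.65 CPM in KO. Mest, Snrpn and Nnat were higher in KO in each of the 3 same-numbered pairs, the only members of which this was so. With the replicate number as a block their log2 differences were 0.40, 0.29 and 0.21, with adjusted p of 0.54, 0.796 and 0.847 (edgeR), and none was called.

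**Figure D2:**
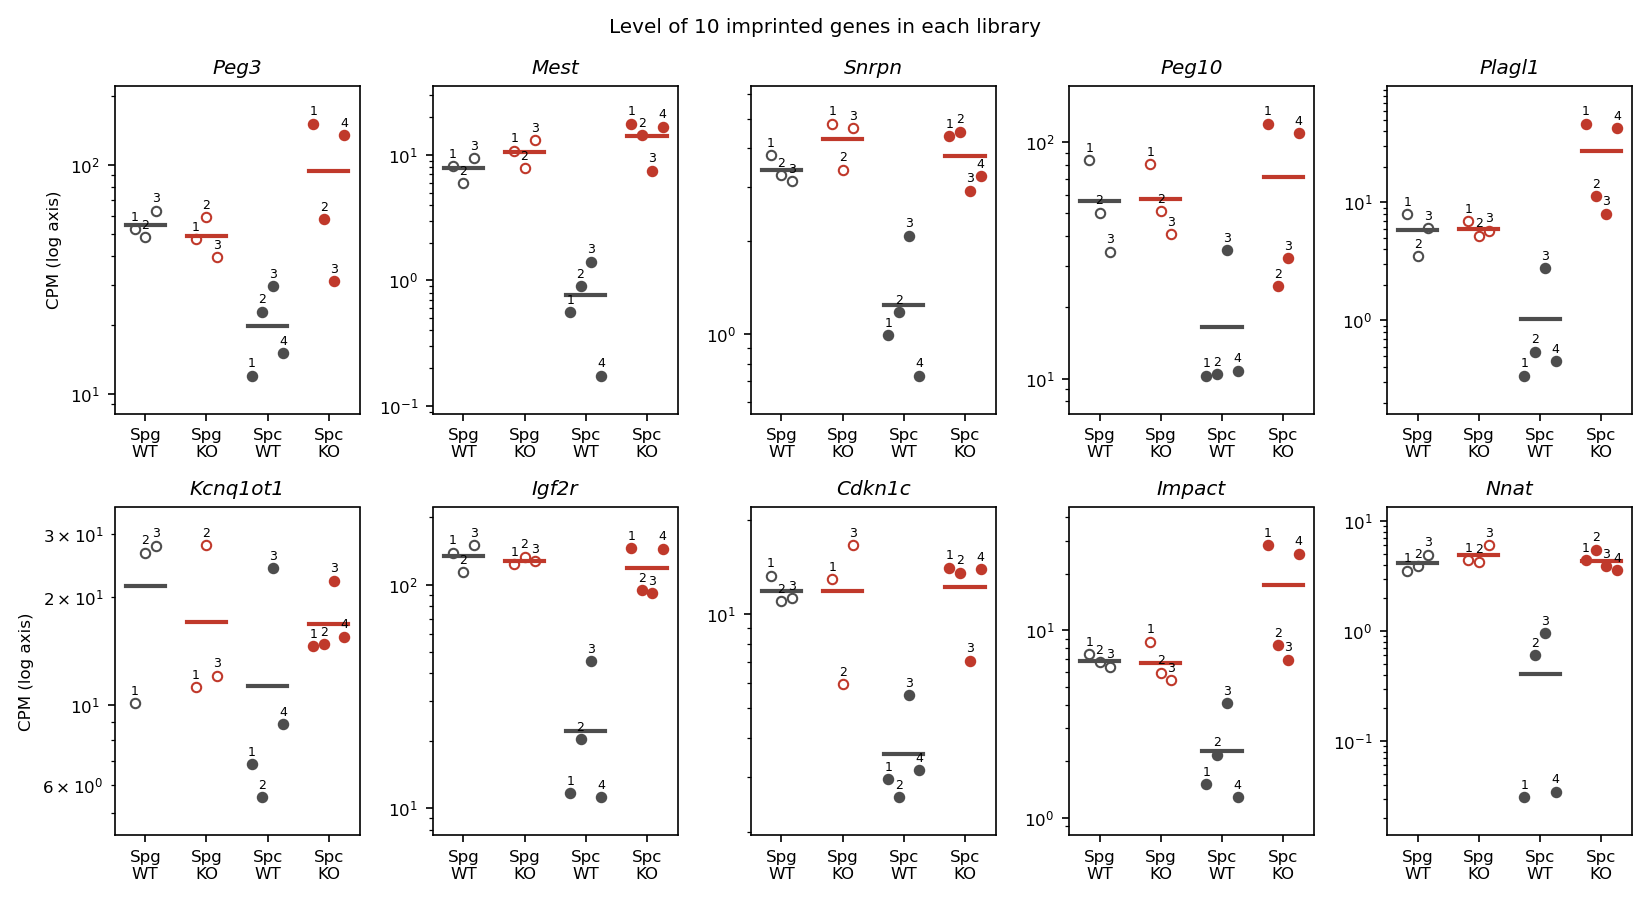
CPM (log axis, different in each panel) of each of the 10 genes in every library, with WT in grey, KO in red, spermatogonia open and spermatocytes filled. Numbers are replicates and bars are means. KO and WT overlap in spermatogonia for every gene, and in spermatocytes 8 genes have no overlap, with the WT libraries lower.

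In spermatocytes 8 of the 10 genes were higher in KO than in WT and none was lower. They were Plagl1, Mest, Nnat, Impact, Igf2r, Peg3, Cdkn1c and Snrpn, with fitted differences from 26.8-fold for Plagl1 to 3.08-fold for Snrpn. Peg10 was 4.41-fold higher but just missed the threshold, and Kcnq1ot1 was not called. This comparison called 58.8% of 21919 genes, 28% of the genes as higher and 30.7% as lower in KO. The median log2 difference of the members was 2.37 and that of all genes 0.11, while the upper decile of all genes began at 3.23. The higher summed levels of stromal, Leydig, macrophage and endothelial markers and lower summed levels of pachytene markers in the same KO libraries stand beside each of these differences.

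Plagl1 had 0.340, 0.543, 2.75 and 0.452 CPM in WT and 46.4, 11.3, 8.05 and 42.6 CPM in KO spermatocytes, the largest difference of the group (log2 4.75, SE 0.88, adjusted p = 0.000933, edgeR). Impact had 1.51, 2.17, 4.07 and 1.29 CPM in WT and 28.3, 8.33, 6.96 and 25.6 CPM in KO (log2 2.97, SE 0.59, adjusted p = 0.0014). In both genes WT replicate 3 was highest of its group, and KO replicates 1 and 4 were far above KO replicates 2 and 3. The lowest KO library still exceeded the highest WT library 2.92-fold for Plagl1 and 1.71-fold for Impact.

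Mest had 0.556, 0.904, 1.41 and 0.174 CPM in WT and 17.7, 14.4, 7.47 and 16.8 CPM in KO spermatocytes (log2 4.23, SE 0.60, adjusted p = 0.000201, edgeR). Nnat was close to absent in WT replicates 1 and 4, with a single count in each (0.0309 and 0.0348 CPM), had 0.603 and 0.958 CPM in WT replicates 2 and 3, and 4.43, 5.50, 3.87 and 3.58 CPM in KO (log2 3.43, SE 0.85, adjusted p = 0.00462). These were the most widely separated genes, with the lowest KO library 5.29-fold over the highest WT library for Mest and 3.74-fold for Nnat. The KO libraries of Nnat were within 1.53-fold of one another. The call of Nnat was lost without KO replicate 2 (log2 3.30) and without WT replicate 2 (log2 3.62).

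Igf2r had 11.7, 20.3, 45.5 and 11.2 CPM in WT and 146, 94.4, 91.5 and 145 CPM in KO spermatocytes (log2 2.47, SE 0.45, adjusted p = 0.000791, edgeR). Cdkn1c had 2.96, 2.59, 5.49 and 3.17 CPM in WT and 14, 13.5, 7.07 and 13.9 CPM in KO (log2 1.79, SE 0.38, adjusted p = 0.00195). The maternally expressed pair of the group was therefore higher in KO, as were 6 of the 8 paternally expressed genes. KO replicate 3 was the lowest KO library for both, and WT replicate 3 the highest WT library.

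Peg3 had 12, 22.8, 29.5 and 15.1 CPM in WT and 151, 58.1, 31.0 and 134 CPM in KO spermatocytes (log2 2.27, SE 0.50, adjusted p = 0.00237, edgeR). Peg10 had 10.3, 10.4, 34.9 and 10.8 CPM in WT and 120, 24.6, 32.4 and 109 CPM in KO (log2 2.14, SE 0.61, adjusted p = 0.0101). KO replicate 3 of Peg3 was only 1.05-fold above WT replicate 3, and both KO replicates 2 and 3 of Peg10 were below WT replicate 3. Peg10 was called in any fit that left out KO replicate 2, KO replicate 3 or WT replicate 3, and by DESeq2.

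Snrpn had 0.988, 1.18, 2.08 and 0.730 CPM in WT and 4.39, 4.53, 2.92 and 3.26 CPM in KO spermatocytes (log2 1.62, SE 0.41, adjusted p = 0.00498, edgeR). Kcnq1ot1 had 6.85, 5.55, 24.0 and 8.87 CPM in WT and 14.6, 14.8, 22.2 and 15.5 CPM in KO (log2 0.60, SE 0.46, adjusted p = 0.265). The groups of Snrpn did not overlap, but its call was lost when any library other than KO replicate 3 and WT replicate 3 was left out, with log2 differences of 1.41 to 1.68. Kcnq1ot1 overlapped through WT replicate 3 alone, and without that library its difference was 1.27 and was called. Its interval over all libraries, -0.43 to 1.62, includes both no change and more than a doubling.

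The groups did not overlap for 8 of the 10 genes, all with KO above WT, against 34.2% of all genes tested. In order of KO over WT among mean levels, Plagl1, Mest, Nnat and Impact led and Kcnq1ot1 was last. KO replicates 1 and 4, which were high for Peg3, Peg10, Plagl1 and Impact, also had the most Sertoli (1144 and 1064 CPM), Leydig (356 and 290 CPM), stromal and endothelial (146 and 131 CPM) markers. They had fewer spermatogonial markers (464 and 456 CPM) than KO replicates 2 and 3 (1161 and 1144 CPM), and macrophage markers were highest in KO replicate 2 (145 CPM against 71.3 and 67.4 CPM in replicates 1 and 4). WT replicate 3, with the highest level of all 10 genes and the least pachytene marker RNA (8375 CPM) of the WT spermatocytes, also had the most RNA of Sertoli (537 CPM), spermatid (1192 CPM), early meiotic (1684 CPM) and spermatogonial (440 CPM) markers among them. KO replicate 3 had the fewest stromal markers of the KO spermatocytes (544 CPM), still above the 52.1 to 67.9 CPM of WT. With it as the only KO library, the 10 differences ran from 0.69 (Peg3) to 3.33 (Mest). For the 8 genes without overlap the direction was fixed beforehand by the levels. This library was chosen after its values were seen, and as the lone sample of its group it was assumed to vary like the WT libraries. Neither the directions nor the calls of that fit are therefore read as a test.

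With replicates 1 and 4 counted as a single sample in each genotype, 3 members were called, namely Mest, Plagl1 and Igf2r, beside 39.3% of all genes. Leaving out WT replicate 3 gave 10 calls (61.8% of all genes), and leaving out WT replicate 2 gave 6 (51.6%).

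**Figure D3:**
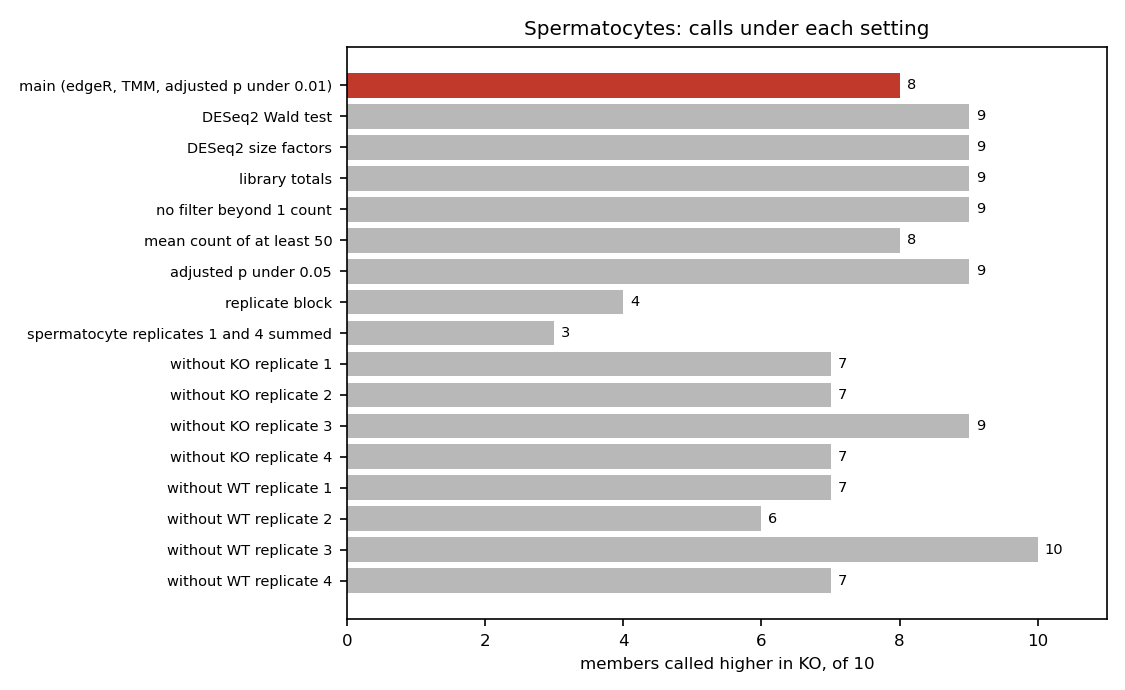
Number of the 10 genes called higher in KO than WT spermatocytes (horizontal axis) under each setting of the test, with the reported setting in red. The count is 8 in the reported setting, 3 with replicates 1 and 4 summed and between 6 and 10 when any single library is left out.

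The genotype effect differed between the stages for 5 of the 10 genes, as tested by the interaction of genotype and stage over all 14 libraries. It was larger in spermatocytes for Plagl1 by a log2 value of 4.67 (SE 1.06, adjusted p = 0.00371 by edgeR), for Mest by 3.74 (SE 0.72, adjusted p = 0.00148), for Impact by 2.97 (SE 0.74, adjusted p = 0.00602), for Igf2r by 2.50 (SE 0.57, adjusted p = 0.00373) and for Peg3 by 2.40 (SE 0.64, adjusted p = 0.00886). These 5 calls compare with 25.7% of 24340 genes called in either direction, 11.1% with a larger and 14.6% with a smaller value in spermatocytes. Nnat (3.13), Peg10 (2.07), Cdkn1c (1.77), Snrpn (1.26) and Kcnq1ot1 (0.90) had values above 0 that were not called, with adjusted p between 0.018 and 0.327. The median of the 10 was 2.45, and that of all genes 0.20. The call of Peg3 was kept only without KO spermatocyte replicate 2 or 3, WT spermatocyte replicate 3 or WT spermatogonia replicate 2, and that of Impact only without these libraries, KO spermatogonia replicate 1 or WT spermatogonia replicate 3. Plagl1 was lost without KO spermatogonia replicate 2 or 3. The count thus ran from 2, without KO spermatogonia replicate 2 (16.3% of all genes called) or 3 (15.1%), to 9 without WT spermatocyte replicate 3 (37.5%). With the replicate number as a block 2 were called (Mest and Igf2r, beside 24.6% of all genes), and with spermatocyte replicates 1 and 4 summed only Mest was (14.8%).

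**Figure D4:**
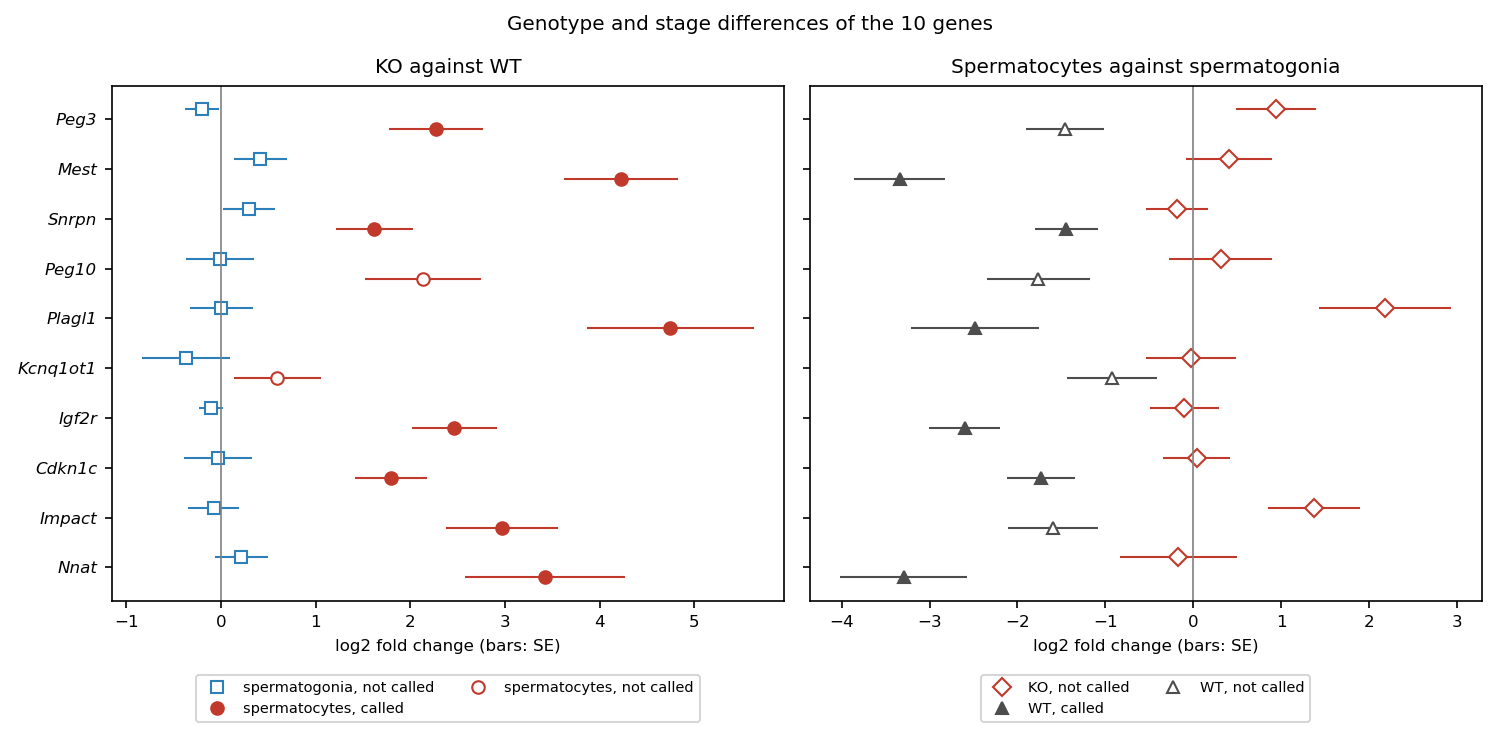
Log2 fold changes with SE bars for each of the 10 genes. Left, KO against WT in spermatogonia (squares) and spermatocytes (circles). Right, spermatocytes against spermatogonia in WT (triangles) and KO (diamonds). Filled symbols were called at an adjusted p under 0.01. All spermatogonia values lie near 0, and on the right all WT values are below 0 while no KO value was called.

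Among WT libraries, 6 of the genes were lower in spermatocytes than in spermatogonia and none was higher. Mest was 10.1-fold lower, Nnat 9.81-fold, Igf2r 6.06-fold, Plagl1 5.60-fold, Cdkn1c 3.32-fold and Snrpn 2.72-fold, with adjusted p from 0.000101 to 0.0084 (edgeR). Of all 24340 genes tested 52.5% were called, 29.2% higher and 23.3% lower in spermatocytes. Peg10 (log2 -1.76), Impact (-1.59), Peg3 (-1.46) and Kcnq1ot1 (-0.92) were not called. The stages did not overlap for 8 genes, all lower in spermatocytes, against 30.8% of all genes lower without overlap, and the exceptions were Peg10 and Kcnq1ot1, through WT spermatocyte replicate 3. Without that library all 10 were called, and without WT spermatocyte replicate 1 or 4 both Snrpn and Plagl1 were not. The same pair was lost with spermatocyte replicates 1 and 4 summed, where 4 members and 46% of all genes were called. Plagl1 was also not called without WT spermatocyte replicate 2 or WT spermatogonia replicate 1 or 3, while Peg3 was called without WT spermatogonia replicate 2 and Peg10 without WT spermatogonia replicate 3. The same comparison had Sertoli markers at 325 to 1161 CPM in WT spermatogonia and 141 to 537 CPM in WT spermatocytes, with 2 of 10 called lower.

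Among KO libraries, none of the 10 was called between the stages. The background was low here too, with 3.05% of 24340 genes called. Stromal markers summed to 34.3 to 40.7 CPM in KO spermatogonia and 544 to 6232 CPM in KO spermatocytes, and their part in the values was not tested. Plagl1 (log2 2.18, unadjusted p = 0.0118 and adjusted p = 0.0906, edgeR) and Impact (1.38, unadjusted p = 0.0202 and adjusted p = 0.124) were the 2 genes under an unadjusted p of 0.05, which 24.5% of all genes reached. The stages did not overlap for Plagl1 alone among the 10, against 26.4% of all genes. Peg3 stood at 0.94 and the remaining 7 genes between -0.19 and 0.40. Their intervals were wide, for example -0.94 to 0.74 for Igf2r and -1.60 to 1.26 for Nnat, so a difference of up to about that size is not excluded by these libraries. KO spermatocytes had Igf2r at 119 ± 30.3 CPM (SD, n = 4) and KO spermatogonia at 128 ± 5.17 CPM (SD, n = 3), against 22.1 ± 16.1 CPM (SD, n = 4) in WT spermatocytes and 134 ± 18.5 CPM (SD, n = 3) in WT spermatogonia. The comparisons of genotype and of stage share libraries, so these values are given side by side and are not independent.

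Per kilobase of exon, the order of the genes was alike in both genotypes of spermatogonia, apart from Mest and Nnat, which overlapped and traded places. In WT spermatogonia Igf2r led with 14.4 ± 1.98 CPM per kb (SD, n = 3), followed by Peg10 (8.45), Cdkn1c (5.79), Peg3 (4.10), Nnat (2.25), Mest (1.98), Snrpn (1.58), Impact (1.34), Plagl1 (0.744) and Kcnq1ot1 (0.231). Neighbours in that order overlapped for Igf2r and Peg10, Peg10 and Cdkn1c, Nnat and Mest, and Mest and Snrpn, and the other neighbours were apart. In WT spermatocytes the whole order was flatter, from 2.49 CPM per kb for Peg10 to 0.122 for Kcnq1ot1, and every gene overlapped its neighbours. In KO spermatocytes Igf2r (12.8 CPM per kb), Peg10 (10.7) and Peg3 (7.03) were highest. Plagl1, ninth in the other groups, was sixth there at 3.46 ± 2.58 CPM per kb (SD, n = 4), with overlapping neighbours. Kcnq1ot1, counted over its whole unspliced length, was last in all groups.

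Genes that share the imprinted clusters of the members were called in both directions in KO spermatocytes, at shares near those of all genes. Of 35 listed neighbours 29 were tested, and 10 were higher and 6 lower, where 28% and 30.7% of all genes were, with a median log2 difference of 0.54 against 0.11 for all genes. Zim1, a zinc finger gene beside Peg3, rose most, from a mean of 0.0844 to 14.6 CPM (log2 7.39, adjusted p = 9.02e-05, edgeR). Pon3, a paraoxonase beside Peg10, rose from 0.337 to 14 CPM (log2 5.40, adjusted p = 0.000274). Others of the same clusters fell, and strongly so. Asb4, a ubiquitin ligase adaptor in the Peg10 cluster, fell from 48.0 to 0.470 CPM (log2 -6.68, adjusted p = 6.76e-05). The G protein-coupled receptor gene Mas1, near Igf2r, fell from 6.84 to 0.0799 CPM (log2 -6.38, adjusted p = 0.00019). The transporter gene Slc22a18, near Cdkn1c, fell from 16.5 to 0.386 CPM (log2 -5.41, adjusted p = 0.000122). The Igf2r, Peg10 and Cdkn1c clusters thus each held a gene that was lower in KO.

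In spermatogonia none of the 27 neighbours tested was called. In WT, spermatocytes were higher than spermatogonia for 6 of 31 and lower for 9, beside 29.2% and 23.3% of all genes. Mas1 (log2 7.98), Asb4 (6.93), Slc22a18 (6.76) and Pon2 (5.46) were higher and Magel2 (-5.46) lower. Magel2 was at or near 0 in WT spermatocytes, at most 0.024 CPM, so its fitted fold depends on the prior count and is no bound. The same holds for Mas1, at most 0.0546 CPM in WT spermatogonia and 0.162 CPM in KO spermatocytes. It holds as well for Zim1, at most 0.211 CPM in WT spermatocytes. Between the KO stages 3 of 31 were called (3.05% of all genes), all higher in spermatocytes, which were Pon3 (6.30), Pon2 (3.98) and Sgce (3.15), all from the Peg10 cluster. The genotype effect differed between stages for 8 of 31 neighbours upward and 2 downward (11.1% and 14.6% of all genes), led by Zim1 (7.03), Slc22a18 (-6.36), Magel2 (5.20), Pon3 (4.94) and Airn (4.67). Airn, the silencing RNA antisense to Igf2r, had at most 0.120 CPM in WT and 1.22 to 2.41 CPM in KO spermatocytes, where Igf2r was higher as well.

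Of 16 other genes with maternal methylation marks, 14 were tested in spermatocytes, where 8 were higher and 4 lower in KO (28% and 30.7% of all genes) with a median of 1.39. In spermatogonia 0 of 15 were called (0.0436% of all genes). In WT 5 of 15 were higher and 6 lower in spermatocytes than in spermatogonia (29.2% and 23.3% of all genes), and none of 15 was called between the KO stages (3.05%). The interaction was called for 4 of 15 upward and 3 downward (11.1% and 14.6%).

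Of 11 factors that set or keep imprints, none was called in spermatogonia, and in KO spermatocytes 4 were higher and 3 lower, together close to the 58.8% of all genes called. The examples named were chosen after their values were seen. Kdm1b, the histone demethylase needed for maternal imprints in oocytes, was at 2.05 to 11.5 CPM in WT and 30.0 to 51.0 CPM in KO spermatocytes (log2 3.02, adjusted p = 0.000937, edgeR). Dppa3, which guards the maternal genome against demethylation in the zygote, was higher as well (log2 2.63, adjusted p = 0.00432, edgeR). It was near the floor, at 0.0309 to 0.287 CPM in WT and 0.631 to 1.25 CPM in KO spermatocytes. Zfp57, which keeps imprints after fertilisation, fell (log2 -1.77, adjusted p = 0.00645), as did its partner Trim28 (log2 -1.49, adjusted p = 0.000178). The genotypes overlapped for Zfp57, at 3.50 to 13.4 CPM in WT and 2.22 to 4.16 CPM in KO spermatocytes. Between the WT stages 2 of 11 factors were higher and 4 lower in spermatocytes (29.2% and 23.3% of all genes), and between the KO stages none was called (3.05%). The interaction was called for Kdm1b (2.90) and Trim28 (-1.39), beside 25.7% of all genes.

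Copies of young L1 and ERVK subfamilies, chosen by the name of the subfamily, had little RNA within the spans of the 10 genes. They numbered 13 in Snrpn, 1 in Impact, 1 in Kcnq1ot1 and none in the others, and their mean level was at most 0.688 TPM in any group. The TPM of TE copies sum to 1000000 over TE copies of a library and are not comparable with CPM of genes. Igf2r held 107 listed copies of any age, with a summed mean of 48.7 TPM in WT and 39.2 TPM in KO spermatogonia and 5.70 TPM in WT and 44.0 TPM in KO spermatocytes. The copies in the direction of Igf2r made up 22.1 and 14.3 TPM of these sums in WT and KO spermatogonia, 11.1 TPM in KO spermatocytes and less than those in WT spermatocytes. As for Igf2r itself, WT spermatocytes were lowest in both sums, and for copies in sense reads of the copy and of the unspliced host transcript cannot be told apart. Kcnq1ot1, with 113 copies inside its single exon, had 13 above 0 and a summed mean in sense of only 0.0357 to 0.180 TPM.

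For the members the genes whose profiles over the 14 libraries were most like it were found from the root mean square difference of centred log2(CPM + 0.5) values among 16918 genes. Igf2r had the closest match, Tmem135, at 0.135, followed by Spred1 (0.137). Snrpn was most like Cmas (0.160), Impact like Aldh1l1 (0.190), Mest like Capg (0.193) and Peg10 like Kif21a (0.197). Cdkn1c was most like Ubash3b (0.223), Plagl1 like Pgrmc1 (0.227), Peg3 like Kcnd3 (0.234) and Kcnq1ot1 like Gm47572 (0.275). No member had another member among its 2 nearest genes.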

How the data were processed

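Polyadenylated RNA of sorted germ cells was measured in 14 libraries, made from 10 ng RNA with a stranded kit and 13 PCR cycles. The authors trimmed reads (cutadapt 4.0), aligned them to GRCm38 with STAR 2.7.3a, and counted them by strand with TEtranscripts 2.2.3 over GENCODE M25 genes and TE subfamilies, keeping up to 100 alignments per read. The deposited values are raw counts, and the authors' DESeq2 1.44.0 columns in the same tables (fold changes and p-values) were not used. Deposited TPM per TE copy come from the authors' TElocal 1.1.1 run. They left out 1 spermatogonia replicate per genotype for an RNA integrity number under 8.

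Each stage was fitted with edgeR 4.0.16 (filterByExpr, TMM over genes and TE subfamilies, quasi-likelihood test, R 4.3.3), with p-values adjusted by Benjamini-Hochberg over all features. Stage contrasts and the interaction of genotype and stage were fitted over 14 libraries on features in both tables. SE is the absolute log2 fold change over the square root of F, and 95% intervals use the t distribution at the degrees of freedom of that test. Totals of 40555726 to 53323651 counts per library leave members at 1 to 8243 counts per library. Calls used an adjusted p under 0.01. DESeq2 1.42.0, other scalings, filters, a replicate block and each library left out were the alternatives. Exon lengths and positions come from GENCODE M21 (99.7% and 99.6% of gene IDs matched), whose Peg3 model has another version, and promoter sequences from RefSeq on GRCm38.p6.

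Correlations of deviations from the group means were 0.727, 0.148 and 0.301 for same-numbered spermatogonia. KO replicate 2 was more like WT replicate 3 (0.295) than WT replicate 2, so the pairing was clear for number 1 only. The numbers were read as pairs there from the data alone, which remains unsure for numbers 2 and 3. The block raised calls among all genes in spermatogonia from 9 to 108 (27 higher, 81 lower) and left 0 members called. The numbers of spermatocytes did not pair the samples (0.0763, 0.228, -0.0377 and 0.134).

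All 10 members were named in every comparison. From the lists of neighbours, other maternally methylated genes and imprint factors, pooled, up to 5 called genes with the largest absolute log2 fold change were named per comparison (all came from the neighbours, and the factors named were chosen after their values were seen), and for likeness the nearest of genes with a mean of at least 1 CPM, which for 1 member is not reported here. Members and lists were chosen with earlier results of these data known. The fits were also run on simulated counts of independent samples with a single fixed spread for every gene. These libraries are unlike that setting, so the run is no check of the calls.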

Additional observations from a re-analysis of the deposited data

Results flagged for a closer look

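Among 20 groups of 4 spermatocyte libraries examined, 4 held a library far from the other 3. In such tests chance marks about 1 group in 20 if the 4 libraries are independent. Replicates 1 and 4 were much alike and all groups share the same libraries, so the count is not read against that rate. Peg10 was at 34.9 CPM and Plagl1 at 2.75 CPM in WT replicate 3, each above the other WT spermatocyte libraries. Kcnq1ot1 was at 22.2 CPM in KO replicate 3, above the other KO spermatocyte libraries, and Cdkn1c at 7.07 CPM in the same library, below the others. WT replicate 3 also had the lowest pachytene (8375 CPM) and the highest Sertoli (537 CPM), spermatid (1192 CPM), early meiotic (1684 CPM) and spermatogonial (440 CPM) marker sums of the WT spermatocytes, and KO replicate 3 the lowest stromal sum of the KO spermatocytes (544 CPM). The part of those cells in the levels was not tested.

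The effect of the KO differed between spermatocytes and spermatogonia by the test of the interaction for 5 genes, beside 25.7% of all genes called (11.1% of all genes upward). The count was 2 with the replicate block and 1 with spermatocyte replicates 1 and 4 summed. The effect in spermatocytes exceeded that in spermatogonia on the log2 scale by 4.67 for Plagl1, 3.74 for Mest, 2.97 for Impact, 2.50 for Igf2r and 2.40 for Peg3. The KO spermatocytes also differed from all other groups in stromal markers (544 to 6232 CPM against at most 67.9 CPM).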

How the results depend on the processing

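In spermatocytes, between the WT stages and in the interaction, no member changed direction under any alternative run. In spermatocytes KO against WT, 8 members were called (58.8% of all genes), 4 (Mest, Plagl1, Igf2r and Nnat) with the replicate block (52.2%), 3 with replicates 1 and 4 summed (39.3%), 9 with DESeq2, its size factors, library totals, no filter or an adjusted p under 0.05, 8 with a mean count of at least 50, 0 with KO replicate 3 as the only KO library (4.99%, added after seeing the data), and 6 to 10 with 1 library left out. For the interaction the counts were 5 (25.7%), 2 with the replicate block (24.6%), 1 with replicates 1 and 4 summed (14.8%), 7 with DESeq2 (40.6%) or an adjusted p under 0.05 (46%), 6 with library totals, 5 with DESeq2 size factors or either other filter, 0 with KO replicate 3 alone, and 2 to 9 with 1 library left out. The counts with KO replicate 3 alone come from an arm of 1 library chosen after its values were seen and are no measure of stability. Between the WT stages 6 were called, 4 with replicates 1 and 4 summed (Snrpn and Plagl1 lost), 5 with the block, 7 with DESeq2 size factors, 8 with no filter or a mean count of at least 50, 9 with DESeq2, library totals or an adjusted p under 0.05, and 4 to 10 with 1 library left out. The replicate block changed the call of Plagl1 there (-2.57, not called) and no call in spermatogonia or between the KO stages. Not every spermatocyte library correlated best with its own number. The cause of these moves was not tested, apart from the fewer samples that some alternatives hold.

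Scaling by library totals moved the median of all genes from 0.11 to 0.79 in spermatocytes, from 0.20 to 0.90 in the interaction and from 0.02 to -0.76 between the WT stages, and the share of called genes that were higher in KO spermatocytes with it (6145 of 12885 against 8074 of 12954). Among all genes of spermatogonia, 514 were called by DESeq2, 13 with its size factors, 144 with no filter, 108 with the block and 0 to 18 with 1 library left out, against 9, and no member was called in any of them. With KO replicate 3 as the only KO spermatocyte library 1271 genes were called, and with replicates 1 and 4 summed 8758.

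Values that changed sign were not called before or after the change. In spermatogonia Peg10 was 0.0089 with library totals and 0.034 with the replicate block, and with 1 library left out it ran from -0.31 to 0.38, Plagl1 from -0.24 to 0.30, Cdkn1c from -0.36 to 0.29 and Impact from -0.29 to 0.059. Between the KO stages Cdkn1c was -0.059 with library totals, -0.019 with no filter and -0.024 with replicates 1 and 4 summed. Kcnq1ot1 was 0.025 with the block and 0.032 with the sum, and Nnat 0.18 with the block. With KO replicate 3 alone Peg3 was -0.71, Mest -0.58, Peg10 -0.90, Kcnq1ot1 0.32, Cdkn1c -0.81 and Impact -0.0053. With 1 library left out Kcnq1ot1 ran from -0.30 to 0.45, Cdkn1c from -0.35 to 0.31 and Peg10 from -0.079 to 0.59. Depth limits Nnat and Mest most, with 1 and 5 counts in the lowest WT spermatocyte library.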
